A study of Sparus aurata with 6 samples.

Results

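In the gills of gilthead seabream (Sparus aurata) fed essential oils (EOs), 107 contigs gave a lower signal than in fish fed the control diet by 2 or more separate probes. They were chosen by the contrast of the diets itself: a probe passed when its 3 EOs arrays all lay below its 3 control arrays and its mean difference, EOs minus control, was -0.5 or less on the log2 scale, and a contig was taken when at least 2 of its probes passed. These 107 were 2.02% of the 5292 contigs with at least 2 probes well above background on all 6 arrays, of 15156 names on the array. Since these values chose the contigs, the differences between diets given here are a description, with no test.

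Fish of the EOs group were juveniles given the basal diet with 0.5% of a microencapsulated blend of synthetic garlic, carvacrol and thymol EOs, and control juveniles had the basal diet alone. Both were sampled on day 65, before any contact with the parasite used later in the study, and RNA came from the second gill arch of the right side. Each of the 6 one-colour Agilent arrays held RNA pooled from several fish, 3 pools per diet. The methods describe 2 pools of 4 fish per diet and another made by combining them, while the series description speaks of 3 pools of 4 fish from 8 fish per diet. Pool numbers are given as in the labels, which do not say which pool is the combined one, so the spread over 3 pools may be too small and so may any p-value.

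Gills are the respiratory surface of fish, and they also carry out ion exchange, nitrogen excretion and mucosal defence. Their tissue mixes pavement cells, mucous cells, ionocytes, pillar cells, leukocytes, cartilage and red blood cells. Carvacrol and thymol are phenolic monoterpenes known from oregano and thyme, and garlic oil is rich in organosulfur compounds. A contig is a transcript sequence assembled from overlapping cDNA reads, and every name on the array is called a contig here, whether or not it was assembled. The array carries short oligonucleotide probes, often several to a contig, which can measure the same transcript at different places. In such bulk RNA, fewer cells of a type and less RNA per cell cannot be told apart.

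The array files give each contig only a name, with no gene. None of the 15156 names was found among the 32006 genes of the RefSeq table, but they are names of contigs and clones rather than of genes. The study named genes for part of its own list from this array, and those names were not linked to the contigs here. The contigs are therefore described by name, no role is stated for them here, and neither the tissue nor its cell types were checked against marker genes. The share of the 28793 probes marked well above background was highest in EOs pool 3, at 88.6%, and lowest in control pool 1, at 75.2%, and no spot was saturated. Each array was on a slide of its own, and all control arrays were scanned before all EOs arrays, so the diet cannot be told apart from the order of scanning.

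Of the 21469 probes well above background on every array, 625 (2.91%) passed the rule, and 263 of these belonged to the 107 contigs. Without a limit on size, 2520 probes (11.7%) had all EOs arrays below all control arrays. By limma across all 21469 probes, 44 (0.205%) were lower with EOs at an adjusted p under 0.05 and 59 were higher. Without EOs pool 1, EOs pool 3 or control pool 3 limma called 0 probes in either direction, with 833 to 1006 lower and 1174 to 1324 higher at an unadjusted p under 0.05. It called 2 lower and 0 higher without EOs pool 2 (1539 and 1860 unadjusted), 4 lower and 11 higher without control pool 1, and 203 lower and 525 higher without control pool 2. Among the 263 probes, 27 were below that threshold, with adjusted p from 0.0202 to 0.351, and 9 contigs had 2 or more such probes; the rule used this contrast, so nothing is read from these counts. The mirrored rule found 157 contigs higher with EOs, and none of them was among the 107. The lower contigs made up 40.5% of both sets together, and 40.4% to 43.0% without any one EOs pool or control pool 3. With an array left out the rule asked fewer arrays to lie apart. It gave 268 lower and 268 higher contigs without control pool 1, and 113 lower and 311 higher without control pool 2. The split was not stable to scaling either, since the same rule gave 140 lower and 122 higher contigs after median scaling, 142 and 124 after quantile scaling, and 134 and 95 after scaling to spike-in probes. It gave 563 and 42 after background correction by normexp, and 81 and 190 from the authors' log2 values.

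Most of the decreases were small. The difference of a contig, averaged over its passing probes, had a median of -0.68 on the log2 scale, a level 1.60-fold lower with EOs, and ran between -2.08 and -0.52. It was -1 or less in 19 contigs, -0.75 or less in 38 and above -0.75 in 69, whereas the median over all 5292 contigs was 0.06. Here and below, unless stated otherwise, values over all 5292 contigs average every probe of a contig above background, and values of the 107 only its passing probes. The lowest control pool lay above the highest EOs pool by a median of 0.35, by over 0.5 in 27 contigs and by 0.06 in the closest. The median level of the 107 contigs, relative to the 75th percentile of each array, was -1.62, -1.43 and -1.53 in EOs pools 1, 2 and 3 and -0.96, -0.81 and -0.88 in control pools 1, 2 and 3.

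**Figure D1:**
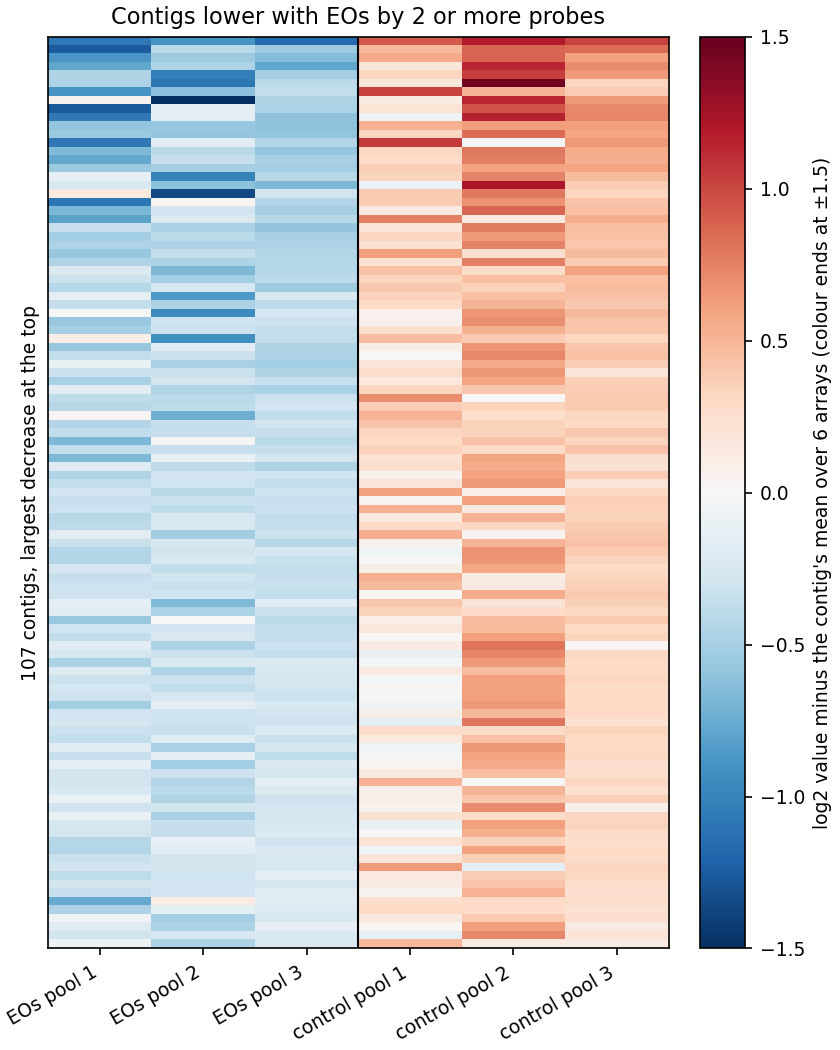
Log2 value of each of the 107 contigs in the 6 pools, EOs on the left and control on the right, minus the contig's own mean over the 6 arrays (colour), with the largest decrease at the top. The EOs columns are mostly blue and the control columns mostly red, as the rule required, and the darkest red stands most often in control pool 2.

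Seabream_2006-01-03-CL3706Contig1 had the largest difference, -2.08, or 4.23-fold lower with EOs. Over its 2 passing probes it stood at -1.01, -0.82 and -1.10 in EOs pools 1, 2 and 3, against 0.98, 1.26 and 1.08 in control pools 1, 2 and 3, all on the log2 scale relative to the array's 75th percentile. The pools of one diet lay close together and the diets were 1.80 apart. This mean hides probes that differ widely. Probe CUST_18927 was at -3.91, -3.22 and -3.95 in EOs pools and at -0.56, -0.25 and -0.35 in control pools, a difference of -3.31, or 9.91-fold. Probe CUST_18926 was at 1.89, 1.58 and 1.75 in EOs pools and at 2.52, 2.77 and 2.50 in control pools, a difference of -0.85. The other 2 probes of the contig also had all EOs pools below all control pools but missed the limit of -0.5, with -0.43 for CUST_18925 and -0.38 for CUST_107, which is printed in 15 spots. The size of the difference in this contig rested on 1 probe, the dimmest of the 4, while all 4 were lower with EOs. Only 3 of the 5292 contigs (0.0567%) had a wider range of differences among their probes.

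cDN11P0005O20.F.ab1 was the brightest of the 107 contigs and the second in size, and its 4 probes gave nearly the same decrease. It stood at 4.53, 5.37 and 5.24 in EOs pools 1, 2 and 3, against 6.26, 6.65 and 6.61 in control pools 1, 2 and 3, a difference of -1.46 or 2.75-fold. EOs pool 1 was the lowest of the 6, and the spread was 0.45 in EOs pools and 0.21 in control pools (SD, n = 3 each). The 4 probes differed by -1.56, -1.54, -1.45 and -1.29. The probe in 15 spots, CUST_162, had processed intensities of 45350, 63829 and 79233 in EOs pools and 159059, 167199 and 174475 in control pools, and its spots had an SD of at most 0.15 on the log2 scale within an array, against a difference of -1.45.

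**Figure D2:**
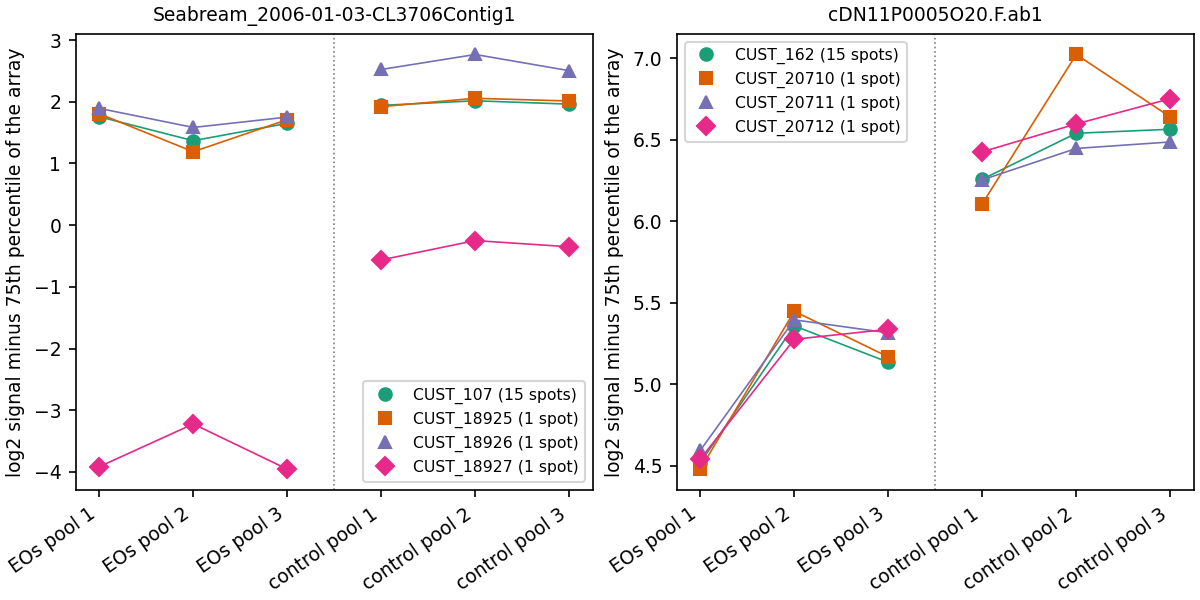
Log2 value of each probe of the 2 contigs with the largest decrease, relative to the array's 75th percentile, in 3 EOs pools on the left and 3 control pools on the right of each panel; lines join the pools of 1 diet. In Seabream_2006-01-03-CL3706Contig1 probe CUST_18927 differed by -3.31 and the other 3 by -0.85 to -0.38, whereas the 4 probes of cDN11P0005O20.F.ab1 differed by -1.56 to -1.29.

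The next 6 contigs by size differed by -1.37 to -1.26, and 5 of them had a mean level of -2.05 or less relative to the array's 75th percentile. cDN06P0006L22.F.ab1 was at -4.92, -4.57 and -4.69 in EOs pools and at -3.48, -3.16 and -3.43 in control pools, a difference of -1.37. Its pools were tight in both diets, but its passing probes differed by -1.69 and -1.06, and a further probe (-1.04) was not above background on every array. cDN04P0003G08.F.ab1 was at -1.33, -1.02 and -1.34 in EOs pools and at -0.38, 0.59 and 0.15 in control pools, a difference of -1.35. All 3 of its probes passed, within 0.15 of each other, and the control pools spread more widely (SD 0.49) than the EOs pools (SD 0.18). Seabream_2006-01-03-CL1376Contig1 was at -4.21, -4.78 and -4.28 in EOs pools and at -3.44, -2.73 and -3.12 in control pools, a difference of -1.33 over 3 probes. Contig829 was at -5.01, -5.63 and -4.94 in EOs pools and at -4.38, -3.10 and -4.22 in control pools, a difference of -1.29 over 3 probes. In Contig829 control pool 2 alone stood far above the rest, and the other 2 control pools were 0.56 or more above the highest EOs pool.

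Contig1699 was at -3.82, -3.56 and -3.30 in EOs pools and at -1.92, -2.42 and -2.55 in control pools, a difference of -1.26. Control pool 1 was its highest pool. Another probe of Contig1699, CUST_1315, had a larger difference (-1.51) but overlapped between diets, being at -5.13, -4.96 and -5.11 in EOs pools and at -2.22, -5.41 and -3.04 in control pools. cDN09P0001I06.F.ab1 was at -2.00, -3.55 and -2.51 in EOs pools and at -1.94, -0.92 and -1.41 in control pools, a difference of -1.26. Its EOs pools had the widest spread among these 8 contigs (SD 0.79), its control pools had an SD of 0.51, and EOs pool 1 and control pool 1 were only 0.06 apart, the narrowest gap of all 107.

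**Figure D3:**
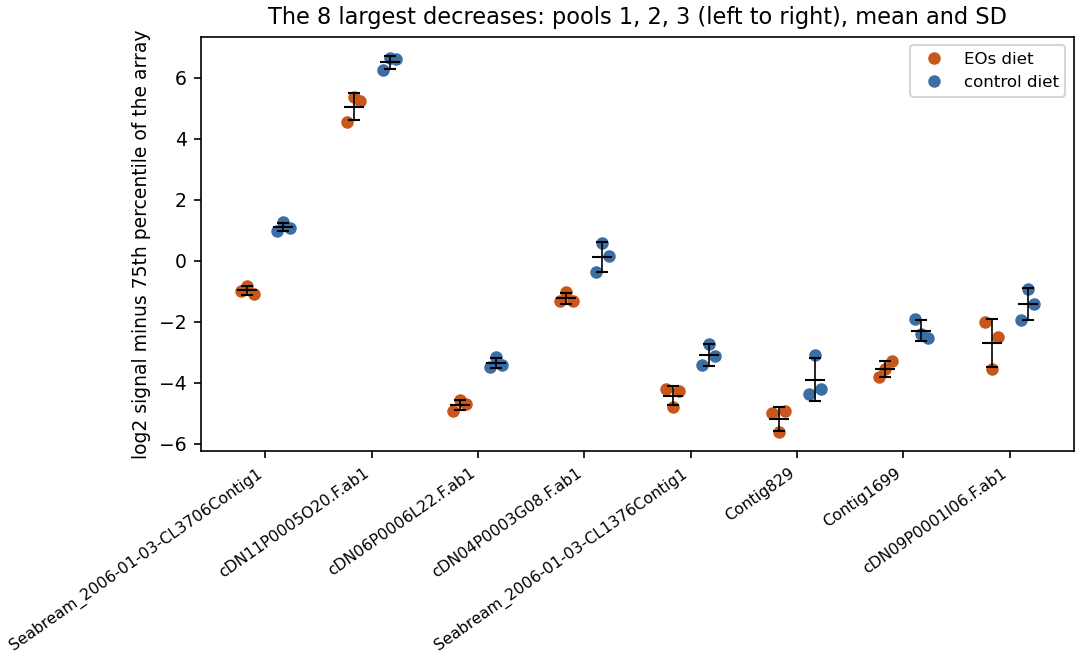
Log2 level relative to the array's 75th percentile for the 8 contigs with the largest decreases, EOs left of control, with 1 point per pool (pools 1, 2 and 3 from left to right) and lines for the mean and the SD over 3 pools. The diets are 1.80 apart in Seabream_2006-01-03-CL3706Contig1 and only 0.06 apart in cDN09P0001I06.F.ab1.

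Among the most closely measured contigs, cDN06P0003M24.F.ab1 passed with 4 probes. It was at -2.54, -2.51 and -2.42 in EOs pools and at -1.76, -1.80 and -1.73 in control pools, a difference of -0.73, or 1.66-fold. Its 4 probe differences lay within 0.08 of each other and the spread was 0.07 in EOs pools and 0.03 in control pools (SD, n = 3 each), and the diets were 0.62 apart. cDN13P0001P04.F.ab1 also passed with 4 probes, being at -2.10, -2.48 and -2.26 in EOs pools and at -1.77, -1.71 and -1.68 in control pools, a difference of -0.56. Here the EOs pools spread more (SD 0.19) than the control pools (SD 0.05).

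Beside cDN11P0005O20.F.ab1, the brightest contigs were Contig1896 and Seabream_2006-01-03-CL720Contig1. Contig1896 was at 5.26, 5.18 and 5.33 in EOs pools and at 5.55, 6.07 and 5.83 in control pools, a difference of -0.56 or 1.47-fold. This was over 3 of its 4 probes, and the other, CUST_1643, differed by -0.40. Seabream_2006-01-03-CL720Contig1 was at 4.68, 4.74 and 4.84 in EOs pools and at 5.08, 5.55 and 5.28 in control pools, a difference of -0.55. In both, the EOs pools were tight and control pool 2 was the highest. Without control pool 2 both contigs differed by -0.43, and neither met the rule. Across the 107 contigs the level ran between -4.81 and 5.78 with a median of -1.22, against a median of -1.03 over all 5292, and 33 (30.8%) lay above the array's 75th percentile, against 35.3% of all. When the 5292 contigs were cut into dim, middle and bright parts of 1764 each, the rule took 36 (2.04%), 42 (2.38%) and 29 (1.64%), close to the 2.02% overall.

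At the edge of the rule, cDN09P0006G19.F.ab1 was taken with a second probe at -0.505 and Contig3204 with one at -0.507. cDN09P0006G19.F.ab1 was at 1.07, 1.10 and 1.14 in EOs pools and at 1.21, 2.08 and 1.56 in control pools, so that control pool 1 stood only 0.07 above the highest EOs pool. Contig3204 was at -2.82, -2.82 and -2.88 in EOs pools and at -2.36, -2.05 and -2.23 in control pools. Just outside lay Contig3418, with probes at -0.81 and -0.498, and Seabream_2006-01-03-CL2122Contig1, with probes at -0.51, -0.498 and -0.45, and every one of these probes had all EOs pools below all control pools. Contigs on either side of the limit thus had nearly the same second probe.

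Within a contig the probes were mostly alike in size. Of the 107 contigs, 61 passed with 2 probes, 43 with 3 and 3 with 4, and in 46 every probe on the array passed. The range among the passing differences of a contig had a median of 0.09 and exceeded 0.5 in 3 contigs, Seabream_2006-01-03-CL3706Contig1 (2.45), cDN06P0006L22.F.ab1 (0.64) and Contig2312 (0.52). The rule takes only differences of -0.5 or less, which can narrow this range. Over all probes above background the median range was 0.16 in the 107 contigs, close to the 0.18 in all 5292. A further 54 probes of 53 of these contigs were above background but did not pass. Their median difference was -0.46 and 53 of the 54 were below 0, against 46.3% of all 21469 probes. All EOs pools lay below all control pools in 22 of the 54, against 11.7% of all 21469 probes, and another 11 reached -0.5 or less with an overlap. These probes share the transcript and arrays of the probes that the rule used, so nothing is read from these counts. The exception was a probe of Contig189 at 0.17. Of 8 more probes that were not above background on all arrays, 5 were below 0, and they ran between -1.04 and 0.72.

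The probes of a contig share its transcript and the same 6 arrays, so they check the probe and not the pool. Probe sequences were not used here, and whether probes of a contig overlap or repeat the same oligonucleotide was not tested. Most of the 263 passing probes had 1 spot (218), 41 had 2 and 4 had 15. For the probes with 2 spots the largest SD between spots on an array had a median of 0.13 and reached 0.55, and for those with 15 spots it was between 0.07 and 0.15, all on the log2 scale.

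The control pools varied more than the EOs pools in these contigs, as they did over the array, but how much more depended on the processing. The size of pool 2 minus pool 1 had a median of 0.19 in EOs pools and 0.44 in control pools over the 107 contigs. These medians were 0.24 and 0.29 after median scaling, 0.19 and 0.26 after spike-in scaling and 0.16 and 0.56 after normexp. The SD over 3 pools had a median of 0.12 in EOs pools and 0.24 in control pools, against 0.11 and 0.18 over all 5292 contigs, and it was smaller with EOs in 74 of the 107 (69.2%, against 69.1% of all). Control pool 2 exceeded control pool 1 in 84 contigs (78.5%), against 52.0% of all, with a median difference of 0.38, against 0.03 in all. EOs pool 2 exceeded EOs pool 1 in 58 contigs (54.2%, against 42.6% of all), with a median difference of 0.02. Control pool 2 was the highest control pool in 80 contigs, pool 1 in 19 and pool 3 in 8, while pool 1 was the lowest in 79. The highest and lowest control pools were not counted over all 5292 contigs. The mean of the EOs pools minus control pool 1 had a median of -0.57, minus control pool 2 of -0.90 and minus control pool 3 of -0.69. Over all 5292 contigs these medians were 0.05, 0.04 and 0.06. The rule set no order among pools of 1 diet, but a high control pool widens the difference that it used, and how far that contributed to these shares was not tested.

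**Figure D4:**
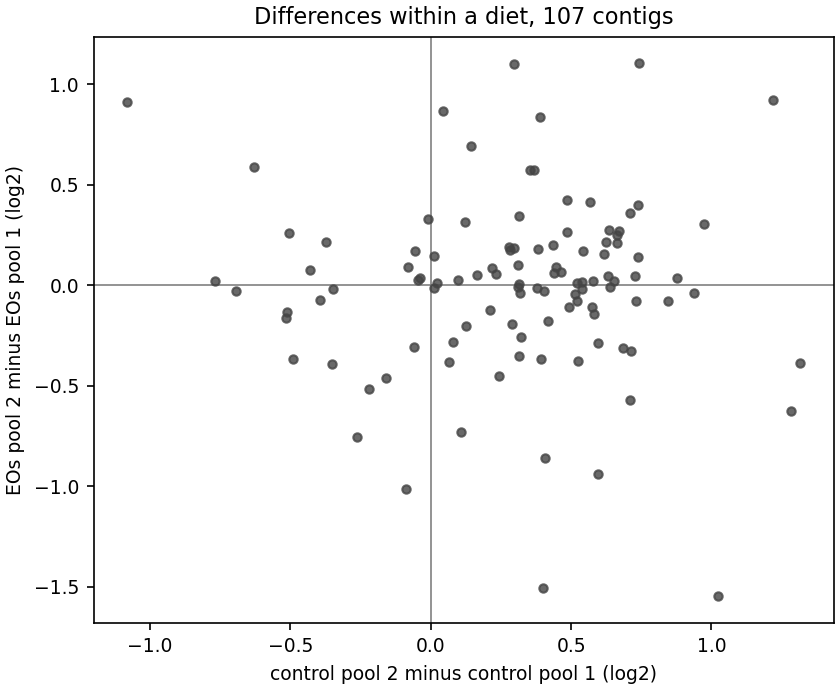
For each of the 107 contigs (points), EOs pool 2 minus EOs pool 1 on the vertical axis against control pool 2 minus control pool 1 on the horizontal axis, both on the log2 scale. Points lie right of 0 for 84 contigs, and they lie above 0 on the vertical axis for 58.

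Pool 3 lay between pools 1 and 2 in 64 contigs with EOs (59.8%, against 52.7% of all) and in 89 contigs with control (83.2%, against 76.6% of all). With pool 3 of both diets left out, 118 contigs met the rule and 102 of them were among the 107. The rule kept 73 of the 107 without control pool 2, and 113 contigs met it in all. Without control pool 1, 103 of the 107 stayed but 268 contigs met it.

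The names of the contigs were uneven in their first letters. Names that begin with cDN made up 61 of the 107 contigs, which was 2.80% of the 2178 so named with at least 2 probes above background. Names that begin with Contig gave 26 of 1631 (1.59%), those that begin with Seabream gave 19 of 1253 (1.52%) and those that begin with SCT gave 1 of 169 (0.592%). Within the cDN names the share was highest for cDN06, with 7 of 116 (6.03%), and for cDN04, with 8 of 160 (5.00%). It was lowest for cDN14, with 1 of 113 (0.885%), and for cDN03, with 2 of 212 (0.943%). All these counts are small, and no difference among them was tested. cDN10P0006G21.F.ab1 and cDN10P0006G22.F.ab1 follow each other in name and differed by -0.98 and -0.95. What these name groups stand for is not given in the sources used here, and whether their contigs overlap in sequence was not tested. On the surface of the array the spots of the passing probes were spread over all 4 equal bands of rows, with 29.4%, 23.6%, 25.3% and 21.7% of them, against 24.3%, 25.5%, 25.5% and 24.7% of all spots of probes above background.

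All 107 contigs kept a difference below 0 under every other scaling, background correction, filter and left-out array that was tried, but fewer kept to the whole rule. With arrays left out the rule fixed that sign in advance. It also kept the diets apart in each passing probe, so one of the 107 could fail only the limit of -0.5. The filters on dim probes did not change the differences. Scaling to the median, to spike-in probes or to the 75th percentile of probes above background shifted every difference by the same amount. The median of all probes went from 0.02 to -0.02, -0.01 and 0.04, too little to turn even the smallest decrease, -0.52. Normexp moved that median to -0.24, towards the same sign. Nothing is read from the sign in any of these cases. Under the 4 other scalings 84 of the 107 met the whole rule each time, and when each of the 6 arrays was left out in turn 58 met it each time. Under all of these, background correction by normexp, the authors' log2 values and the values without pool 3, 45 of the 107 met it each time. The 6 contigs with the largest decreases were among the 45. Their mean differences lay farthest beyond the limit of -0.5, so nothing is read from that. Contig1699 missed the rule after spike-in scaling and cDN09P0001I06.F.ab1 after scaling to the 75th percentile of probes above background, and both missed it with the authors' log2 values.

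**Figure D5:**
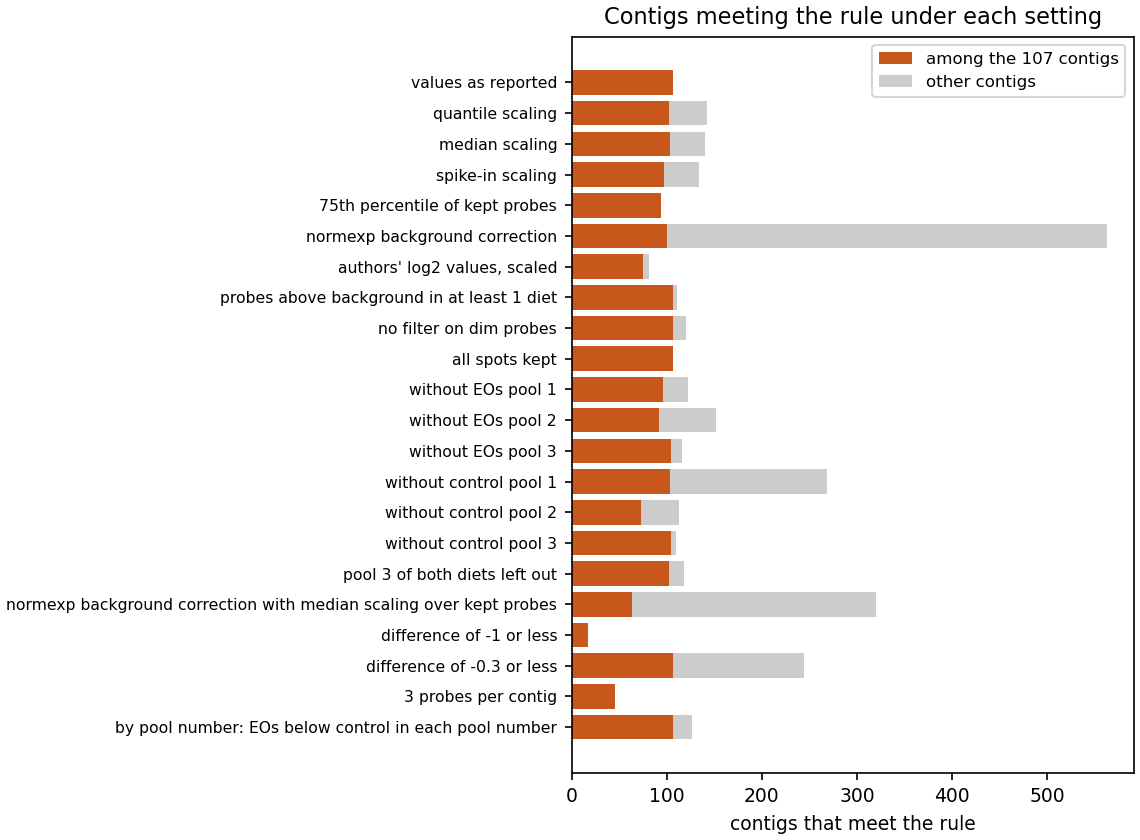
Number of contigs that met the rule under each setting (horizontal bars, axis in contigs), split into those among the 107 and others. The bars reach 563 contigs after normexp and 268 without control pool 1, and the shortest bar of the same rule is 81, from the authors' log2 values. Where arrays were left out, fewer arrays had to lie apart.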

How the data were processed

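RNA of 3 gill pools per diet was labelled with a single dye and hybridized to an oligonucleotide array of the species, 1 array per pool. Per the file headers, the deposited intensity values came from Agilent Feature Extraction 10.7.3.1, on a linear scale, with background subtracted and no scaling between arrays. The authors also deposited log2 values of the background-subtracted spots, used here only as an alternative. By the methods, the study scaled arrays to the 75th percentile and compared diets with an unpaired test.

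Here, control spots and spots marked as outliers (63 to 92 of 45220 per array) were left out. The log2 processed signals of a probe were averaged, and the 75th percentile over all 28793 probes of the array was subtracted. Probes marked well above background on over 50% of their spots on all 6 arrays were kept, 21469 in all. limma 3.58.1 in R 4.3.3 was fitted to them with diet as the only term, two-sided, with Benjamini-Hochberg adjustment, and was first tested on simulated data. Other steps used Python 3.11.15 with pandas 2.3.3.

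The members and lists were chosen with earlier results of these data known. The contigs named are the 8 with the largest decrease, the 3 with the most passing probes, the 3 brightest and, at the limit of the rule, 2 inside and 2 outside; others are named where a count was small, after their values were seen. Alternatives covered scaling (quantile, median, 8 spike-in probes, 75th percentile of kept probes), normexp with an offset of 50, the authors' log2 values, the filter, all spots, the limits of the rule, the pool number as a block, and arrays left out. A fit of normexp values scaled to the median of kept probes was added after seeing the data. Only 6 arrays limit the precision.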

Additional observations from a re-analysis of the deposited data

How the results depend on the processing

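The number of contigs meeting the rule was 107. It became 563 after normexp, 320 after normexp with median scaling (chosen after seeing the data), 17 with a limit of -1, 244 with a limit of -0.3 and 46 with 3 probes required. With 1 array left out it lay between 110 and 268, the highest without control pool 1. Fewer arrays then had to lie apart, so these counts and the 107 are not on equal terms. The median difference of the 107 contigs, -0.68, became -0.90 after normexp, which moved the median of all probes to -0.24, and lay between -0.77 (without control pool 1) and -0.65 (without control pool 2) with 1 array left out. The 44 probes called lower by limma became 68 after quantile scaling, 13 with the authors' log2 values, 16 with probes above background in at least 1 diet, 3 with no filter, and 0 after normexp or without pool 3 of both diets, where 1727 and 334 had an unadjusted p under 0.05. They lay between 0 and 203 with 1 array left out (833 to 2456 at an unadjusted p under 0.05), the highest without control pool 2. Splits of lower and higher limma calls were 44 and 59 as reported and 68 and 53 after quantile scaling. They were 63 and 54 after median scaling, 50 and 86 after spike-in scaling and 13 and 40 with the authors' values. The causes were not tested. With the pool number as a replicate block limma called 0 probes lower (1391 at an unadjusted p under 0.05). With the rule's limits on size and on the number of probes kept, 126 contigs had EOs below control in each number. The rule had already set every EOs array of a passing probe below every control array. All 107 were therefore bound to be among the 126, and nothing is read from that. Deviations of same-numbered pools correlated at -0.23, -0.27 and -0.34, and those of differently numbered pools at -0.06 to 0.28. The labels name no pairing of pools, and the numbers were not treated as pairs. Of 238 values of the 14 named contigs under the alternatives, all were below 0 and 228 moved by less than the SD between pools. The other 10 were all after normexp, with either scaling. There the difference of Seabream_2006-01-03-CL3706Contig1, -2.08, became -1.88, or -1.70 with median scaling. Leaving out 1 array cannot shift a difference by as much as the SD between pools, so nothing is read from the 228. The rule fixed the sign where arrays were left out, and the filters on dim probes left the values unchanged. Scaling to the median, to spike-in probes or to the 75th percentile of kept probes shifted all differences alike, too little to change a sign. Normexp moved the median of all probes towards that sign. Nothing is read from the sign under any of these alternatives. Other alternatives left the numbers of contigs and of limma calls within 1.5 times. Contig829, at a mean level of -4.55, is among the 8 contigs at -4 or less, where signals are dimmest.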
